A study of Mus musculus with 16 samples.

Results

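Firre is an X-linked long noncoding RNA gene, described here through its nuclear RNA and the peaks listed for CTCF on that RNA and on its DNA. It was taken as the 95 kb of the mm9 mouse genome at chrX:47900000-47995000, with Firre on the minus strand. It was the only gene chosen, and its span was 1 of 1755 windows of equal length tiled over the X chromosome and 1 of 27786 over chromosomes 1 to 19 and X. The X tiling was placed so that 1 window matched the span, while other genes can be cut at window borders. That can raise the rank of Firre among windows. The span was set by position and not by any value in these files, but Firre was chosen with earlier results of these data known. In these libraries the span held many peaks of both kinds, on RNA and on DNA. The 4 CLIP libraries listed 61 to 106 minus-strand peaks in it, against 0 in the windows directly beside it. The 3 ChIP libraries listed 12, 16 and 13 peaks, the highest number of any X window in each library, level with 1 other window in day 0 replicate 2. The nuclear RNA of Firre was listed at both days, and its highest listed value was lower at day 3.

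Firre RNA stays in the nucleus and carries a repeated sequence element through which it binds the nuclear matrix protein hnRNP U. The gene escapes X inactivation, its locus makes contacts with other chromosomes, and it has been linked to the position of the inactive X beside the nucleolus. CTCF, which has a row of zinc fingers, marks insulators and the borders of chromatin domains and can also bind RNA.

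The study examined female hybrid mouse embryonic stem (ES) cells on day 0, undifferentiated and adherent with LIF, a cytokine that maintains the undifferentiated state, and on day 3, after 3 days without LIF and without attachment. CLIP, in which UV light crosslinks RNA to protein before the protein is captured, was done with anti-FLAG beads on nuclear lysate of the strain labelled CAST/Ei x 129/Sv/Jae, and 2 UV-treated libraries per day were used. CTCF ChIP, with an antibody to CTCF, was done on the strain labelled 129S1/CastEiJ x 129S1, with 2 libraries at day 0 and 1 at day 3. Stranded, ribosome-depleted RNA-seq of the nuclear lysate had 1 library per day, from the CLIP strain. The series title names CTCF as the protein whose RNA partners were studied. The labels used here do not describe the FLAG-tagged protein or the line that carries it. Of the 16 samples, 9 had files used here. Libraries made without UV and input chromatin were not analysed here, and the peaks therefore have no control background beside them. Nothing in the labels says that the replicates were separate cultures, so the spread between them may be technical.

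CLIP peaks per list numbered 106382 to 213181, and replicate 2 had the longer list on each day. ChIP peaks per list numbered 41264 to 76745, with the most in day 0 replicate 2, and RNA-seq listed 40668 rows at day 0 and 28677 at day 3. The lists give no read depth, so longer lists have more chances to hold a peak of Firre. The RNA-seq rows carry identifiers that were not paired with gene names, so markers of undifferentiated and differentiating ES cells and the other lists of X-linked noncoding genes and chromosome-structure genes were not checked. In bulk libraries, fewer cells with an RNA and less RNA per cell cannot be told apart.

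The promoter of Firre is shown because a CTCF ChIP peak lay over the 5′ end of the gene in 1 library. The sequence is that of RefSeq on build GRCm38.p6, chrX:50635272-50635571, minus strand, from 250 bases before to 50 bases after the annotated start. That is not the build of the peak lists, so its coordinates cannot be set against theirs. The gene matched 1 entry. It is given 5′ to 3′ along Firre, and the capitals mark the bases that match the searched core of the CTCF motif.
Firre promoter: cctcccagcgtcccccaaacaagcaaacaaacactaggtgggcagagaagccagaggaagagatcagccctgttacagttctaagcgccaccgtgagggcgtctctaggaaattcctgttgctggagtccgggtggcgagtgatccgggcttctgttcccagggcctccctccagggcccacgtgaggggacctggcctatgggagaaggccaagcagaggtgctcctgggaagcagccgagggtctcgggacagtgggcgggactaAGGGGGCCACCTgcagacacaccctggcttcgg

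The motif searched was AGGNGGC, read on both strands, so that GCCNCCT on the printed strand also counted. It matched at bases 268 to 274 on the printed strand and at bases 273 to 279 on the other strand, counted from 1 at the 5′ end of the printed sequence. These matches overlap by a pair of bases and both lie downstream of the annotated start. The same motif is held by 29.4% of the 32851 RefSeq promoters of this length, so a match is common. It is a description of the letters, not of a bound site. No genome of the mm9 build was used here, so no sequence is printed from under the peaks.

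The RNA was described first, since CLIP can only recover RNA that is present. All rows of the span were on the minus strand at both days, and none was on the plus strand. Each row gives an FPKM value, that is, fragments scaled to transcript length and to the size of the library. At day 0 the span held 9 rows that pooled 30 assembled transcripts. At day 3 it held 6 rows that pooled 36. Merged over both days, the overlapping rows that include the body of the gene formed a region of 73097 bp at chrX:47915402-47988498, called the Firre region below. Its 5′ end is at the higher coordinate, because the gene runs on the minus strand.

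At day 0 the gene body was split between a long 3′ row and a shorter 5′ row. The 3′ row, chrX:47916068-47965657, was 49590 bp long, pooled 17 transcripts and had an FPKM of 84.5. The 5′ row, chrX:47968626-47988488, was 19863 bp long, pooled 6 transcripts and had an FPKM of 37.3. A single transcript of 2.86 FPKM at chrX:47967625-47968384 lay between them. At day 3, by contrast, 1 row of 72128 bp, chrX:47916371-47988498, covered nearly the whole region, pooled 31 transcripts and had an FPKM of 27.9. A row that pools transcripts holds their mean: the value times the number of transcripts came out in whole hundredths, within 0.01 hundredths, in 600 of 600 day 0 rows and 266 of 266 day 3 rows that could be checked.

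At and beyond the 3′ end of the gene body, both lists held short minus-strand rows of 1 transcript each. At day 0 these were chrX:47909583-47910017 at 16.3 FPKM, chrX:47910171-47910720 at 6.76, chrX:47912546-47912882 at 13.3, chrX:47913667-47913927 at 17.2, chrX:47913984-47914400 at 17.9 and chrX:47914496-47914824 at 15.4. At day 3 they were chrX:47909566-47909850 at 22.3 FPKM, chrX:47910335-47911316 at 7.92, chrX:47911993-47912337 at 15.2, chrX:47913627-47915067 at 12.7 and chrX:47915402-47916211 at 13.04. The last of these overlapped the 3′ end of the long day 0 row, so it belongs to the Firre region and sets its 3′ end. The ranges overlapped. Over all rows of a single transcript, the median was 15.4 FPKM at day 0, with a range of 2.86 to 17.9 over 7 rows, and 13.04 at day 3, with a range of 7.92 to 22.3 over 5 rows.

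The highest row of the span had an FPKM of 84.5 at day 0 and 27.9 at day 3, a difference of -1.57 on the log2(FPKM + 1) scale. There was 1 library per day, so the difference has no replicate check and no test. How the rows were summed up changed its size. The length-weighted mean of the rows was 68.4 at day 0 and 27.1 at day 3 (-1.31 on that scale). The sum over transcripts, 1750 against 935, gave -0.90, and the median of the single-transcript rows gave -0.23. Each of these was lower at day 3, and the number of transcripts assembled differed between the days. A log2 difference of -1 or lower was found in 23.4% of 6900 transcribed regions of at least 10 kb with a mean FPKM of at least 5 that were listed at both days, and their median difference was 0.18. With regions from 300 bp and those listed at 1 day included, 4082 of 20425 had such a difference, and the median was 0.30. In the first of these sets, 18.1% had a difference as low as that of Firre or lower.

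By its level, Firre stood in the upper part of the X-linked regions. Among 330 X regions of at least 10 kb listed at both days, its FPKM ranked 23 from the highest at day 0, where the median was 6.69, and 41 at day 3, where the median was 6.54. Its difference between the days ranked 285 of 330 from the highest. Against all 9770 such regions of the genome it ranked 789 at day 0 and 1290 at day 3.

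**Figure D1:**
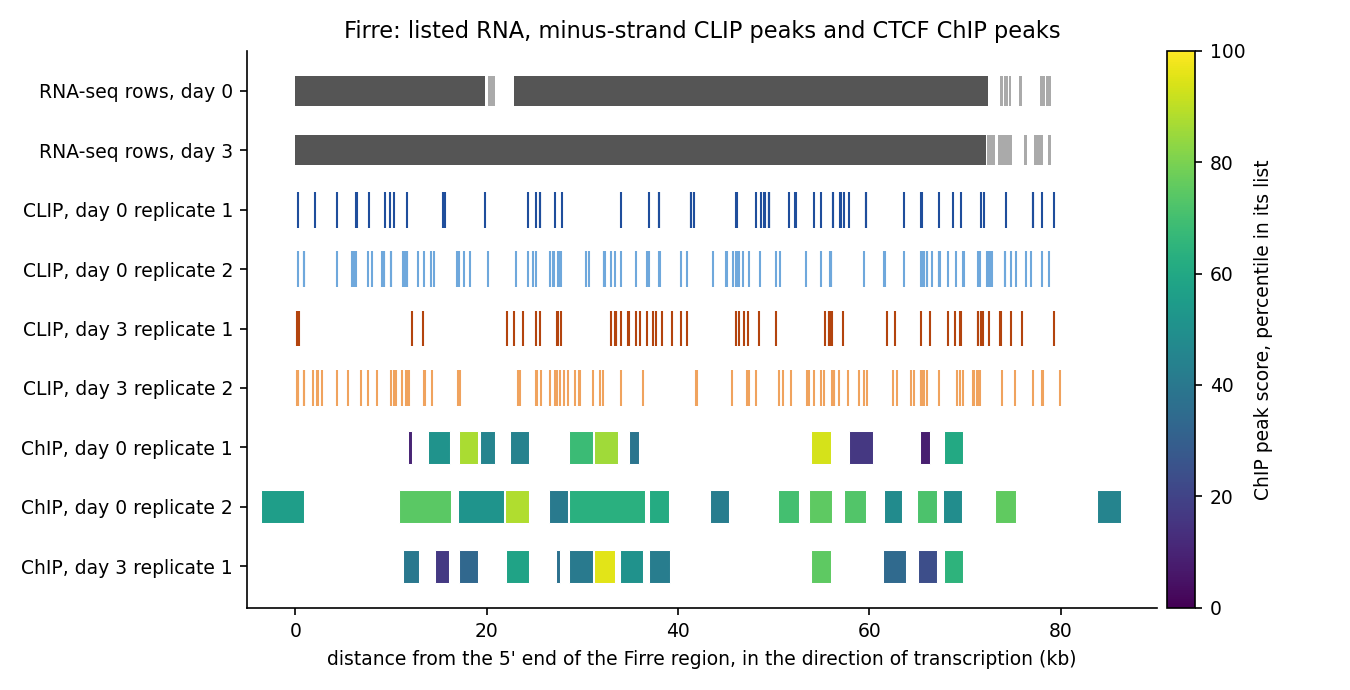
Positions of RNA-seq rows, minus-strand CLIP peaks and CTCF ChIP peaks in the Firre span, by library, against the distance in kb from the 5′ end of the Firre region in the direction of transcription; dark bars are rows that pool several transcripts, grey bars are rows of 1 transcript, and the colour of a ChIP peak is the percentile of its score in its own list. CLIP peaks run along the whole transcript, and ChIP peaks of day 0 replicate 1 and day 3 replicate 1 fall at spaced sites inside it. Day 0 replicate 2 also has ChIP peaks beyond the 3′ end of the region. The 5′ end lies under a ChIP peak only in day 0 replicate 2.

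CLIP peaks lay almost entirely on the strand of Firre. Replicates 1 and 2 of day 0 listed 61 and 106 minus-strand peaks, and replicates 1 and 2 of day 3 listed 61 and 93. Plus-strand peaks numbered 0, 1, 1 and 0 in the same order. In all, 321 of 323 peaks were on the minus strand, 99.4% (exact Clopper-Pearson 95% interval 97.8% to 99.9%, which like all intervals given covers counting error only). Peaks of 1 transcript are not independent, so this interval is too narrow. The strand share of CLIP peaks in other regions is not given here. The plus-strand peaks were chrX:47901251-47901284 in day 0 replicate 2 and chrX:47936170-47936213 in day 3 replicate 1.

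The minus-strand peaks began close to the 5′ end of the gene and ran past its 3′ end. The peak nearest the 5′ end stopped at position 47988214, 47988209, 47988377 and 47988340 in the 4 libraries, all inside the transcribed region. No library listed a minus-strand peak of the span upstream of the region. On the 3′ side the outermost peaks began at 47909148, 47909676, 47909171 and 47908544, near the downstream short rows. Beyond the 3′ end of the region lay 5, 8, 5 and 6 peaks.

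Few minus-strand CLIP peaks lay around the gene, and the count does not cover plus-strand peaks there. The windows directly before and after it held 0 minus-strand CLIP peaks in every library. Over 10 windows of the same length on each side, the median was 0 in each library, and the highest single window held 6, 13, 26 and 5 peaks. None of the 20 held as many peaks as the window of Firre in any library. Gene density and transcription in these windows were not matched to Firre, so the contrast is one of position. On the RefSeq map of GRCm38.p6 the next genes are Gm14620 before Firre, and Stk26, Frmd7 and Rap2c after it, given for order only.

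Among all X windows on the minus strand, Firre ranked 5, 4, 6 and 3 from the highest in the number of CLIP peaks. Both day 0 libraries had a peak in 16.4% of these windows, and both day 3 libraries in 13.8%. At least 50 peaks in every one of the 4 libraries was reached by 5 windows, 0.285% of 1755, of which Firre is one. That limit was chosen after the values were seen. The other windows began at 35740001, 90745001, 101100001 and 103000001. In the whole genome, over 55572 stranded windows, Firre ranked 90, 107, 71 and 56.

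Per kilobase of transcribed region, the CLIP coverage of Firre was also above the middle of the X-linked regions. It had 31.3 and 53.7 peak bases per kb at day 0 and 35.2 and 50.8 at day 3. The medians of the 330 X regions were 6.21, 10.4, 5.17 and 7.80. Firre ranked 28, 22, 17 and 19 among them. By RNA level it ranked 23 and 41 among the same regions, and CLIP coverage was not divided by RNA level.

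**Figure D2:**
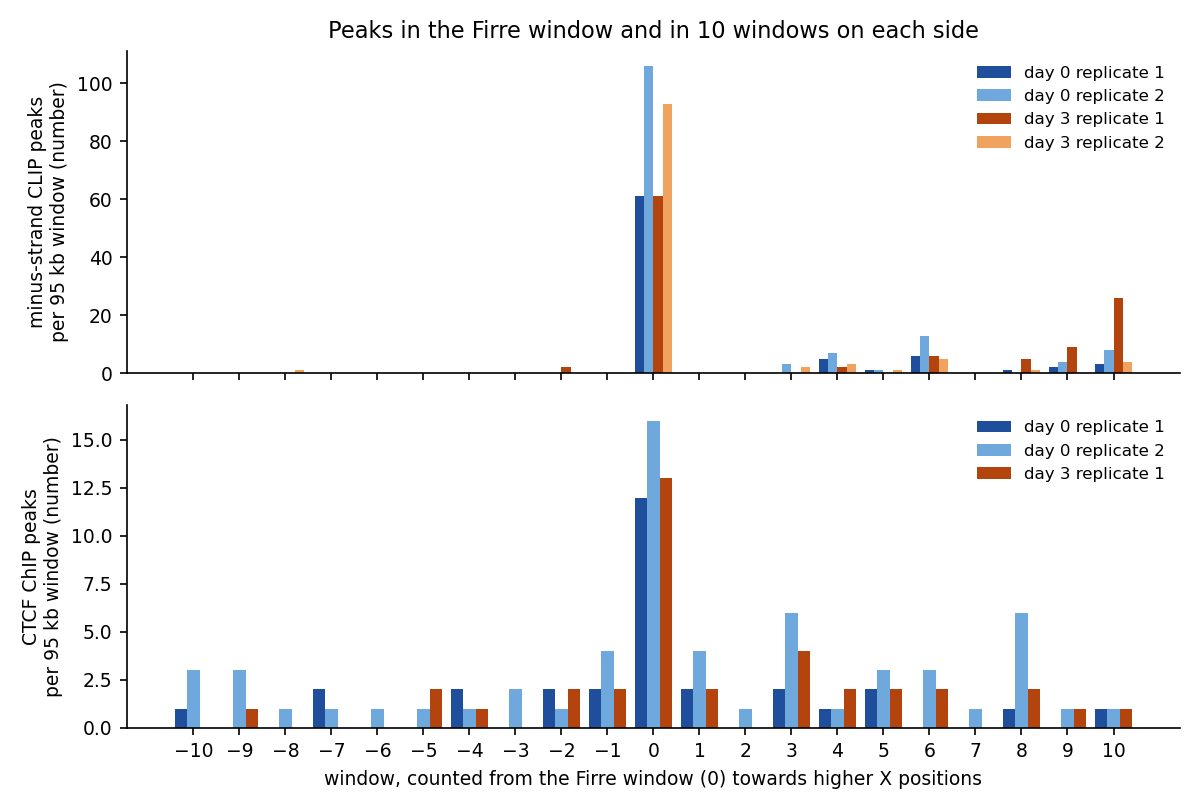
Number of minus-strand CLIP peaks (upper panel) and CTCF ChIP peaks (lower panel) in the 95 kb window of Firre, at 0, and in 10 windows of the same length on each side, with 1 bar per library. The bars of Firre stand at 61 to 106 CLIP peaks and 12 to 16 ChIP peaks, and no neighbouring window exceeds 26 CLIP or 6 ChIP peaks.

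The CLIP coverage of Firre was compared between the days over the 4 libraries. Scaled to the library, the window held 516 and 502 minus-strand peak bases per Mb of listed peak bases at day 0, and 588 and 581 at day 3. Both day 3 libraries were above both day 0 libraries. The means were 509 ± 9.78 at day 0 and 584 ± 4.72 at day 3 (SD, n = 2). The unscaled number of peaks overlapped between the days, at 83.5 ± 31.8 and 77 ± 22.6 (SD, n = 2), because the replicates differ in list length.

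The difference did not pass the test across windows. In limma, on log2 of peak bases per Mb plus a pseudocount of 1, over 16518 stranded windows with peaks in at least 2 libraries, day 3 minus day 0 was 0.20 ± 0.51 (SE) for Firre, with an adjusted p of 0.999 (Benjamini-Hochberg). The 95% interval of the difference ran from -1.25 to 1.64, so a difference of more than 2-fold in either direction lies inside it. No window passed the adjusted threshold of 0.05, and 8.03% of the windows (1327) had an unadjusted p under 0.05 in limma. Both day 3 libraries were above both day 0 libraries in 17.3% of the windows, and in 18.3% of the 10524 windows with peaks in all 4 libraries, so this order is common. An exact permutation test of 2 libraries against 2 cannot give a two-sided p below 0.333. With a pseudocount of 0.1, limma called 513 windows, and the adjusted p of Firre was then 1.00.

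**Figure D3:**
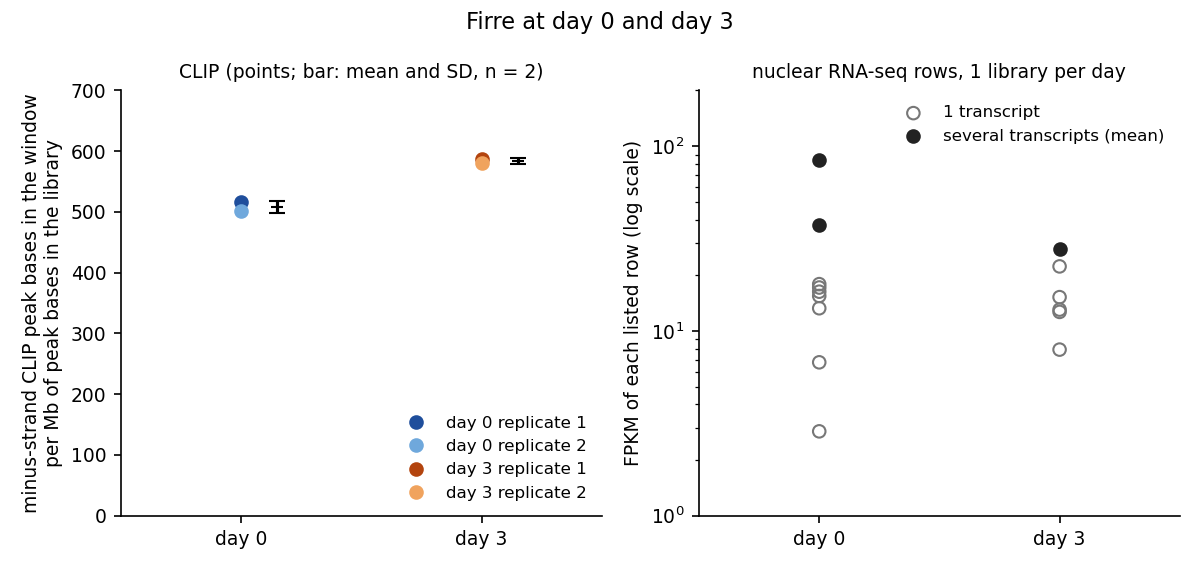
Left, minus-strand CLIP peak bases in the Firre window per Mb of listed peak bases, with 1 point per library and the mean and SD of each day (n = 2); right, FPKM of each listed minus-strand row on a log axis, with 1 library per day. The CLIP points lie at 516 and 502 on day 0 and at 588 and 581 on day 3, and the highest row stands at 84.5 FPKM on day 0 and 27.9 on day 3.

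Along the transcript, peaks were found in every part, and no end was favoured by all libraries. When the Firre region was cut into 3 parts of equal length, the 5′, middle and 3′ parts held 14, 16 and 26 peaks in day 0 replicate 1. In day 0 replicate 2 they held 33, 33 and 32. In day 3 replicate 1 they held 9, 26 and 21, and in day 3 replicate 2 they held 28, 23 and 36. The 5′ part had the fewest peaks in replicate 1 of each day but not in replicate 2. Every 10 kb stretch up to 80 kb from the 5′ end held at least 2 peaks in each library.

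**Figure D4:**
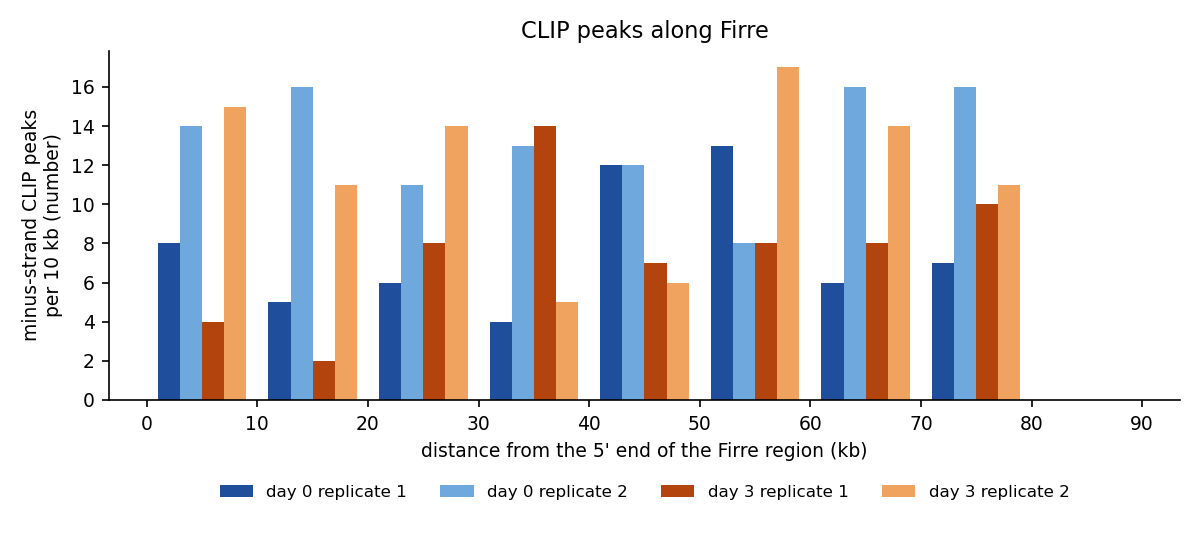
Number of minus-strand CLIP peaks in each 10 kb stretch, against the distance in kb from the 5′ end of the Firre region in the direction of transcription, with 1 bar per library. Peaks occur in every stretch up to 80 kb, and day 3 replicate 1 has 2 peaks between 10 and 20 kb where day 0 replicate 2 has 16.

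Few positions recurred from library to library. Overlapping minus-strand peaks of the 4 libraries formed 231 sites, of which 178 were in 1 library, 38 in 2, 10 in 3 and 5 in all 4. Peaks that only touched or lay a few bases apart stayed separate, which can raise the number of sites in 1 library. Both day 0 libraries held 18 of the sites and both day 3 libraries held 10. Of the 61 peaks of day 0 replicate 1, 27.9% overlapped a peak of day 0 replicate 2, against 24.1% for all peaks of that library on the X. Of the 61 peaks of day 3 replicate 1, 16.4% overlapped a peak of day 3 replicate 2, against 15.5% on the X. As a share of the longer list, 17.9% of the 106 peaks of day 0 replicate 2 overlapped a peak of replicate 1, against 13.3% on the X, and 12.9% of the 93 peaks of day 3 replicate 2 did so, against 9.70%. Between the days, the shares ran from 17.0%, for day 0 replicate 2 in day 3 replicate 1, to 31.1%, for day 0 replicate 1 in day 3 replicate 2, against 10.8% and 15.7% on the X. The shares within a day, 12.9% to 27.9%, and those between the days overlapped. In every pair of libraries the share of Firre was above that on the X, a difference that was not tested. Numbers of recurring sites in other regions are not given here, so low recurrence is not a trait of Firre.

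The 5 sites found in all 4 libraries were spread over the gene. The site nearest the 5′ end, chrX:47988122-47988214, lay 0.330 kb from it and had scores of 1292 and 515 at day 0 and 968 and 768 at day 3. Scores are the authors' own values per peak, and their scale is not stated, so they only rank peaks within a list. The next, chrX:47963253-47963393, lay 25.2 kb from the 5′ end, with scores of 1085, 622, 848 and 1727 in the same order. The site at chrX:47954446-47954550, 34.0 kb from the 5′ end, had 464, 781, 456 and 1489. Towards the 3′ end, chrX:47922969-47923152 at 65.4 kb had 907, 655, 1525 and 796, and chrX:47916828-47917019 at 71.6 kb had 626, 307, 1216 and 496.

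These sites included the highest-scoring Firre peak of 3 of the 4 libraries. The top peak of day 0 replicate 2 was chrX:47954459-47954547, with a score of 781 at percentile 98.6 of its list. That of day 3 replicate 1 was chrX:47923020-47923114, with 1525 at percentile 98.5, and that of day 3 replicate 2 was chrX:47963312-47963377, with 1727 at percentile 99.4. In day 0 replicate 1 the top peak was chrX:47951462-47951537, with 1354 at percentile 97.0, which was not in every library. The other 4 of the top 5 peaks of day 0 replicate 1 scored 1085 to 1292. In day 0 replicate 2 they scored 725 to 765, in day 3 replicate 1 they scored 1214 to 1383, and in day 3 replicate 2 they scored 1223 to 1489. Among them was chrX:47908544-47908613 of day 3 replicate 2, with a score of 1223, which lay 79.9 kb from the 5′ end and outside the region.

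The median score of all Firre peaks was 563 and 328 at day 0 and 587 and 378 at day 3. Their median length was 47 and 39 bp at day 0 and 48 and 38 bp at day 3. The libraries with more peaks, replicate 2 of each day, had the shorter peaks and the lower scores. The whole lists had the same pattern, with median scores of 597, 309, 610 and 390 and median lengths of 46, 38, 47 and 36 bp.

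On the DNA, the Firre span held more CTCF ChIP peaks than its surroundings. The 2 day 0 libraries listed 12 and 16 peaks and the day 3 library 13. The windows directly beside it held 2, 4 and 2 peaks on each side. Over the 20 neighbouring windows the median was 1 in each library and the highest window held 2, 6 and 4. At least 10 peaks in all 3 libraries was found in 1 of 1755 X windows, 0.0570%, and that window was Firre (the limit of 10 was chosen after the values were seen). In all, 34.9% of X windows had a peak in all 3 libraries. Over the 27786 windows of the genome, Firre ranked 5, 18 and 2.

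The ChIP peaks of Firre were many rather than high. Their median score stood at percentile 48.3, 62.3 and 41.0 of the lists. Median peak length was 1993, 2275 and 2091 bp, and the chromatin had been sheared to fragments of kilobase size, so a peak can hold several CTCF motifs and neighbouring sites can merge. The peaks covered 23.0%, 51.5% and 27.3% of the span. Day 0 replicate 2, the library with the longest list, had the widest coverage.

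Overlapping peaks of the 3 ChIP libraries formed 16 sites, of which 7 were in all 3 libraries, 4 in 2 and 5 in 1. The 5 sites seen in 1 library were all in day 0 replicate 2. All 12 peaks of day 0 replicate 1 and all 13 of day 3 overlapped a peak of day 0 replicate 2, against 63.1% and 83.1% for the peaks of these libraries on the X. Peaks of day 0 replicate 2 covered 51.5% of the span, and the shares were not corrected for coverage. Of the day 3 peaks, 76.9% overlapped a peak of day 0 replicate 1, against 65.3% on the X. No site was listed at day 3 alone, but with 1 library at day 3 the days were not tested against each other. Midpoints of neighbouring sites were 2.70 to 14.9 kb apart, with a median of 5.02 kb over 15 gaps.

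The 7 shared sites all lay inside the transcribed region. Ordered from the 5′ end, the first was chrX:47972212-47977619, with highest scores of 27.5 and 30.7 at day 0 and 25.5 at day 3. It was followed by chrX:47966719-47971538, at 52.0, 17.3 and 22.9, and by chrX:47964099-47966622, at 24.6, 43.2 and 33.5. The longest was chrX:47951937-47959948, 8012 bp, where day 0 replicate 2 listed 1 wide peak and each other library listed 3 separate peaks. Its highest scores were 49.9, 23.6 and 70.7, and the last was the highest of any Firre ChIP peak, at percentile 95.7 of its list.

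In the 3′ part of the gene the shared sites were chrX:47932376-47934807, chrX:47921423-47923500 and chrX:47918677-47920841. The first had scores of 62.3, 31.3 and 43.7, at percentiles 93.7, 75.3 and 75.3 of the lists, and held the highest Firre peak of day 0 replicate 1. The other two had scores of 18.4, 28.8 and 19.9, and of 31.8, 15.9 and 37.0. The library with the highest score thus differed from site to site, and scores of different lists show no change between the days.

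The remaining sites were listed in fewer libraries. Day 0 replicate 2 and day 3 shared chrX:47924639-47927129, chrX:47949397-47951498 and chrX:47959964-47961962, with scores of 15.6 and 23.3, 22.1 and 26.2, and 13.2 and 24.4. Both day 0 libraries shared chrX:47928126-47931206, with 19.1 and 29.6. In day 0 replicate 2 alone were chrX:47902231-47904717 at 14.6, chrX:47913191-47915345 at 31.5, chrX:47935876-47938107 at 27.6, chrX:47943189-47945195 at 13.6 and chrX:47987540-47992046 at 19.1. The last of these spans the 5′ end of the Firre region, so CTCF at the promoter was listed in 1 of 3 libraries.

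The share of Firre CLIP peaks that overlapped a ChIP peak of the same day was above the share on the X in all 6 comparisons of libraries, a description that was not tested. Against ChIP day 0 replicate 1, 21.3% (exact 95% interval 11.9% to 33.7%) of the CLIP peaks of day 0 replicate 1 and 26.4% (18.3% to 35.9%) of those of replicate 2 overlapped a ChIP peak. The X as a whole had 4.55% and 4.44%. Against ChIP day 0 replicate 2 the shares were 39.3% (27.1% to 52.7%) and 57.5% (47.6% to 67.1%), and 13.1% and 13.3% on the X. At day 3 they were 45.9% (33.1% to 59.2%) and 31.2% (22.0% to 41.6%), and 4.39% and 4.58% on the X. Peaks of 1 transcript are not independent, so the intervals are too narrow as a measure of sampling.

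Set against how much of the Firre region lay under ChIP peaks, these shares lay on both sides of the coverage. ChIP peaks covered 29.9%, 55.8% and 35.5% of the region in day 0 replicate 1, day 0 replicate 2 and day 3. Of the CLIP peaks in the region, 23.2% and 28.6% lay over ChIP peaks of day 0 replicate 1, and 41.1% and 59.2% over those of day 0 replicate 2. At day 3 they were 50% and 33.3%. The share was below the coverage in 4 of these 6 comparisons and above it in 2. Of the 5 CLIP sites seen in all 4 libraries, 3 lay under a ChIP peak of any library and 1, chrX:47922969-47923152, under a peak of all 3. These sites are too few to set against the coverage, which was 55.8% for day 0 replicate 2 alone.

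Allelic lists of the authors, named cas and mus after the strains of the cross, held some of the Firre peaks. Of the minus-strand CLIP peaks of day 0 replicate 1, 6 were in the cas list and 35 in the mus list. Replicate 2 of day 0 had 22 and 29, day 3 replicate 1 had 20 and 9, and day 3 replicate 2 had 15 and 12. The cas share of the allelic peaks was thus 14.6% (exact 95% interval 5.57% to 29.2%) and 43.1% (29.3% to 57.8%) at day 0, and 69.0% (49.2% to 84.7%) and 55.6% (35.3% to 74.5%) at day 3. On the whole X the cas share was 47.2%, 49.5%, 52.4% and 48.7%.

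Both day 3 libraries had a higher cas share than both day 0 libraries. The same order was found in 17.8% of the 73 stranded windows of the genome with at least 5 allelic CLIP peaks in all 4 libraries, a minimum chosen after the values were seen, so the order was not rare. The lowest value of Firre rests on peaks that may not be separate calls. In day 0 replicate 1, 22 of the mus peaks carried the same value, 18, in the last column of the list, whose meaning is not given. These peaks ran from chrX:47918963 to chrX:47950524. In the other CLIP libraries no value was carried by more than 5 allelic Firre peaks. Where allelic CLIP peaks of different libraries overlapped, 18 of 29 pairs had the same allele, of which 11 came from the 13 pairs between day 0 replicate 2 and day 3 replicate 2. The other library pairs had the same allele in 7 of 16. Without day 0 replicate 2 it was 3 of 8, and without day 3 replicate 2 it was 4 of 10. Some sites gave several of these pairs, so the pairs are not independent. The same-allele share of overlapping pairs over the X is not given here.

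Allelic ChIP peaks of Firre were few. The day 0 libraries had 3 cas and 1 mus, and 3 cas and 5 mus, and day 3 had 2 of each. Peaks of both alleles were thus listed in every ChIP library, and 4 of 5 overlapping pairs between libraries had the same allele. These pairs are not independent: the site chrX:47932376-47934807 was cas in every library and gave a same-allele pair to each pair of libraries. Without day 0 replicate 1 it was 2 of 3, and without either other library 1 of 1. For ChIP, too, the same-allele share over the X is not given here. The lists do not say which X chromosome was inactive in a cell.

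**Figure D5:**
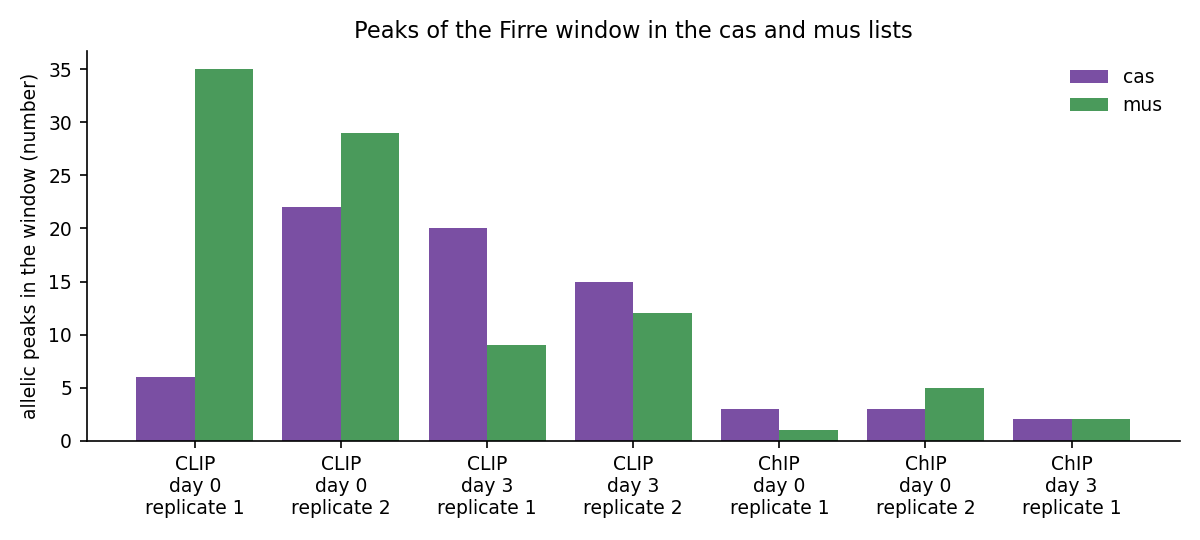
Number of Firre peaks in the cas and mus lists of each CLIP and ChIP library. The mus bar of CLIP day 0 replicate 1 reaches 35 and includes the 22 peaks with 1 shared value, and both alleles are present in all 7 libraries.

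The regions most like Firre were found over 9 values, its FPKM at both days, CLIP peak bases per kb in 4 libraries and ChIP peaks per 100 kb in 3, among 9769 other regions of at least 10 kb. Distances are in SD units of each value on a log2 scale, and the median distance was 5.42. The nearest were chr12:34114357-34125069 on the plus strand, at 0.46, chr9:44187437-44200452 on the plus strand, at 0.79, and chr15:81781325-81791514 on the minus strand, at 0.99. They were followed by chr9:103255433-103268214 and chr4:147451006-147462314, both on the minus strand, at 1.05 and 1.12. The nearest had 48.9 FPKM at day 0 and 14.8 at day 3. The others, in the same order, had 26.7 and 35.1, 17.3 and 16.1, 29.3 and 24.5, and 627 and 21.7. Level and direction of change thus differed among them. All 5 were 10190 to 13016 bp long and held 1 or 2 ChIP peaks per library, so they matched Firre in density but not in number of sites. Firre, over 73097 bp, held 12, 14 and 13 ChIP peaks in the region. The regions are given by position only.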

How the data were processed

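Members and gene lists were chosen with earlier results of these data known. The tools named in the submitters' processing notes, without their roles, were the trimmers cutadapt 1.0 and Trim Galore 0.3.3, the aligners Novoalign 3.00.03 and TopHat2 2.0.8, the assembler Cufflinks 2.1.1, and bedtools 2.17.0 with SAMtools 0.1.18, on build mm9. What called the peaks is not given in the sources here. The deposited CLIP and ChIP lists hold 1 score per peak, set by the authors per library. The RNA-seq values deposited by the authors were taken as FPKM, the unit of Cufflinks, which the files do not name. The deposited allelic lists hold further columns of unstated meaning.

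Positions were read as 0-based starts and are given from 1. A peak counted where it overlapped the span by 1 bp. Overlapping peaks were merged into sites. The FPKM change used the highest row and a pseudocount of 1. CLIP was compared between days with limma (version 3.58.1, run in R 4.3.3) fitted to log2 of peak bases per Mb of listed peak bases plus 1, a scale that understates changes of low windows, for stranded windows with peaks in at least 2 libraries, Benjamini-Hochberg adjusted at 0.05, and the fit was tested on simulated data. Other steps ran in Python 3.11.15 with SciPy 1.17.1, NumPy 2.4.6, pandas 2.3.3 and, for plots, matplotlib 3.10.9. The rule for names took every Firre row and ChIP site, up to 5 top CLIP peaks per library, and the 5 nearest regions. Gene lists with names were not tested, since the identifiers were not paired with names. Alternatives covered scaling, pseudocount, filter, score, windows, overlap rule, replicate block and leaving out each library.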

Additional observations from a re-analysis of the deposited data

How the results depend on the processing

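No direction reversed, and 72 of the recomputed values kept their call or moved little, while 22 moved. The log2 FPKM difference of Firre was -1.31 by the length-weighted mean, -1.60 with a pseudocount of 0.1, -0.90 by the sum over transcripts and -0.23 by the median of single-transcript rows, the last pair chosen after seeing the data. With peaks at or above the median score of their list, the CLIP libraries held 26, 62, 29 and 46 peaks, and ChIP held 6 in day 0 replicate 1 and 5 in day 3. Over all X windows, 4, 4, 6 and 2 others held as many CLIP peaks, and 1 as many ChIP peaks in day 0 replicate 2. With ChIP sites shared by all 3 libraries, the CLIP share over ChIP was 19.7% for day 0 replicate 1 over ChIP replicate 2, and 37.7% for CLIP replicate 2 over either day 0 ChIP library. With ChIP peaks widened by 500 bp it was 40.6% and 70.8% for CLIP replicate 2 at day 0, and 48.4% for day 3 replicate 2. Windows called in limma numbered 513 with a pseudocount of 0.1 and 0 in every other fit run.

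The CLIP difference of Firre stayed between 0.03 and 0.26 on the log2 scale over all alternatives, with adjusted p-values of 0.925 to 1 (limma). Without each library in turn it was 0.18 to 0.22, with 0 windows called. In those fits 1 day has a lone library, which is assumed to vary like the others. With the replicate block it was 0.20 ± 0.60 (SE), with an adjusted p of 0.979 (limma) and 0 windows called. After scaling to listed peak bases, the deviations of same-numbered libraries from their day means had a correlation of 0.06 over 16518 windows. Whether same-numbered libraries were made together is not known: replicate 2 had the longer list and the lower median score on each day. Unknown read depth, 2 CLIP libraries per day, 1 ChIP library at day 3 and 1 RNA-seq library per day limit the comparisons.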
